A study of Mus musculus with 6 samples.

Results

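Chemokine genes transcribed in mouse CD4+ T cell preparations were followed across Naive, Th17 and Th1 cells by bulk RNA-Seq. The set was taken by gene symbol and holds *Ccl1*, *Ccl3*, *Ccl4*, *Ccl5*, *Ccl20*, *Ccl22*, *Xcl1*, *Cxcl9* and *Cxcl10*, which are 9 of the 24223 genes counted. All 9 were in the files, and 8 of them were among the 13607 genes with enough reads to be tested. *Ccl1* did not pass the filter on low counts. Each cell type had 2 libraries, which the study names independent biological replicates. Naive cells were CD4+CD44- T cells, isolated with a CD4+CD62L+ kit from pooled lymph nodes and spleens of C57BL/6 mice of 1 to 2 months, and were not activated. Th17 cells were these cells stimulated through CD3 and CD28 with TGF-β, IL-6, IL-1β, IL-23 and antibodies to IL-4 and IFN-γ. Th1 cells were stimulated in the same way with IL-12, IL-2 and an antibody to IL-4. Both cultures ended on the fifth day, whether cells were restimulated before RNA was taken is not stated, no sort of cytokine-positive cells is described, and by the study's own staining only part of each culture made its cytokine. The control cells were not cultured, so activation, time in culture and polarization cannot be told apart in a comparison with Naive.

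Chemokines are small secreted proteins that bind G protein-coupled receptors and direct leukocyte migration. CCL20 binds CCR6, CCL22 binds CCR4, CCL1 binds CCR8, XCL1 binds XCR1, and CXCL9 and CXCL10 bind CXCR3. CCL3, CCL4 and CCL5 are inflammatory CC chemokines. Many of these genes are switched on by T cell receptor signalling or by interferons, and macrophages, dendritic cells, mast cells and NK cells transcribe several of them too.

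The libraries held 17742158 to 69080017 counts, and replicate 1 was between 3.38 and 3.77 times as deep as replicate 2. Per library, 3 counts corresponded to 0.0440 CPM at the lowest (Naive replicate 1) and 0.190 CPM at the highest (Th1 replicate 2). CPM expresses the counts of a gene per library total after TMM scaling. The transcripts that define the cell types were on the side of their labels. *Il17a* had 526 and 691 CPM in Th17 and at most 0.541 CPM elsewhere, and *Tbx21* had 138 and 159 CPM in Th1 and at most 23.3 CPM elsewhere. The naive markers *Ccr7* and *Lef1* were not called between any 2 cell types. The 7 CD4 T cell markers measured summed to 2706 to 4373 CPM in every library. Markers of other cells were also present and are given after the chemokines.

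In Th17 compared with Naive, 3 of the 8 chemokine genes tested were up-regulated, namely *Ccl20*, *Ccl22* and *Ccl3*. Of all genes tested, 4.01% were up-regulated in this comparison. Calls were made in edgeR's quasi-likelihood test, where the adjusted p had to be under 0.01 and the log2 fold change beyond 1 in either direction. In Th1 against Naive, *Ccl22* alone of the 8 was up-regulated, where 4.64% of all genes were. Between Th1 and Th17, *Ccl20* and *Ccl22* were down-regulated in Th1, where 2.83% of all genes were. The median log2 fold change of the chemokine genes tested was 3.34 in Th17 compared with Naive and -1.66 in Th1 compared with Th17. It was 2.34 over the 7 genes that had a fold change in Th1 compared with Naive, and over all genes the medians were -0.02, -0.03 and -0.02. The 3 comparisons share libraries, so their values are given side by side and are not independent.

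**Figure D1:**
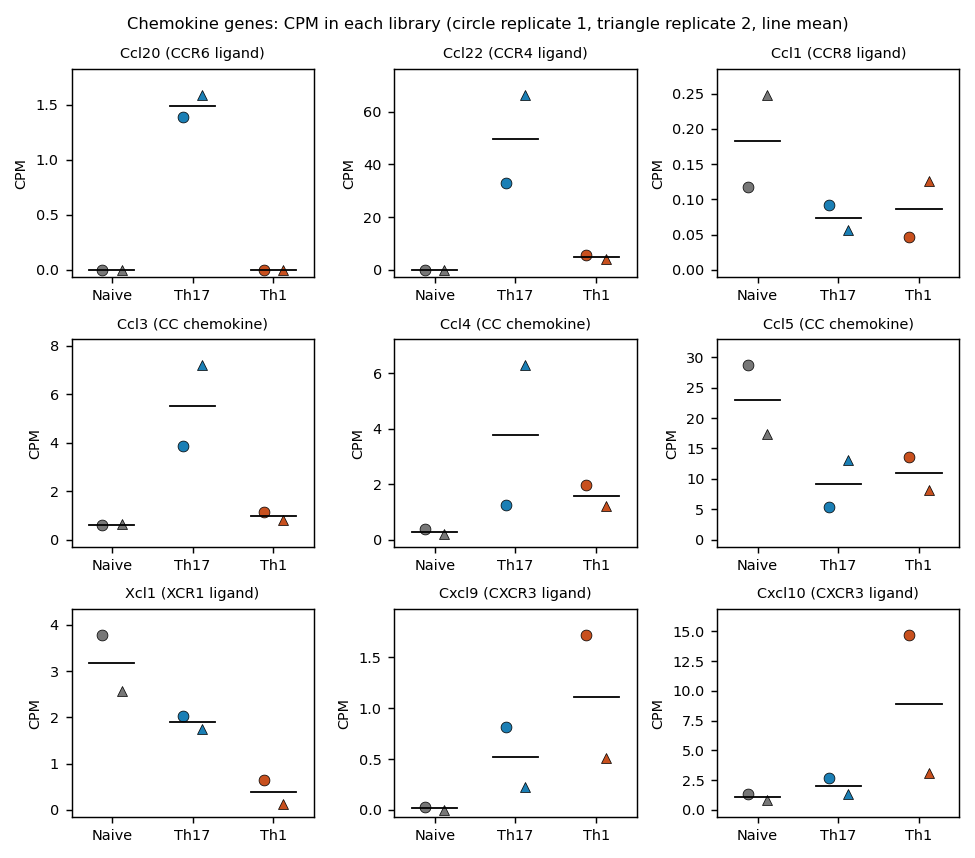
CPM of each chemokine gene (vertical axis, linear, a separate scale per gene) in Naive, Th17 and Th1. Circles are replicate 1, triangles replicate 2 and lines the mean of the 2 libraries. *Ccl20* lies at 0 outside Th17, *Ccl22* runs from 32.8 to 66.1 CPM in Th17, and *Cxcl10* is highest in Th1 replicate 1 at 14.7 CPM.

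*Ccl20* was detected only in Th17 among these 6 libraries. Its single receptor, CCR6, is carried by Th17 cells among others. The gene (chromosome 1, GRCm38, 83116766 to 83119167, plus strand) had 91 counts in Th17 replicate 1 and 28 in replicate 2, which are 1.39 and 1.58 CPM. It had 0 counts in both Naive and both Th1 libraries. The Th17 libraries were level, at 1.49 ± 0.135 CPM (SD, n = 2), and did not overlap with the others. Set against 3 counts per library, Th17 was at least 15.5-fold higher than Naive (adjusted p = 0.00445), and Th1 was at least 12.6-fold lower than Th17 (adjusted p = 0.00525). Between Th1 and Naive no fold can be given. Both calls rest on few reads. Without Naive replicate 1, Th17 replicate 1 or Th17 replicate 2 the adjusted p against Naive was 0.0311, 0.0375 and 0.0202. Without either Th17 or either Th1 library it ranged from 0.0142 to 0.0413 against Th1. With DESeq2 and the replicate number as a block, neither was called (adjusted p = 0.218 and 0.233).

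*Ccl22* had the highest level per kb of transcript of the 9 genes in Th17. CCL22 is also called macrophage-derived chemokine, and its receptor CCR4 is carried by regulatory and Th2 cells. The gene (chromosome 8, 94745590 to 94751699, plus strand) had 32.8 and 66.1 CPM in Th17, 5.48 and 4.11 CPM in Th1, and 0.0147 and 0 CPM in Naive. The 3 cell types did not overlap, in the order Th17, Th1, Naive. Naive held 1 count in all, so the ratio of pooled counts was 3520 for Th17 over Naive, with a 95% counting interval of 632 to 139000. For Th1 over Naive it was 460, with an interval of 82.1 to 18200. The adjusted p-values were 3.05e-05 and 0.000136. Between the 2 helper cell types, *Ccl22* was 10.2-fold lower in Th1, a log2 fold change of -3.35 (SE 0.43, adjusted p = 0.00109). *Ccl22* was called in all 3 comparisons whichever library was left out, with log2 fold changes in Th1 compared with Th17 between -3.78 and -2.76. The Th17 replicates differed from each other, and replicate 2, with the higher *Ccl22*, also had the higher macrophage, dendritic cell and mast cell transcripts described later. In bulk RNA, fewer cells of a type and less RNA per cell cannot be told apart.

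The stretches before the *Ccl20* and *Ccl22* genes are shown because these genes carried the largest differences between the helper cell types. They come from RefSeq on GRCm38.p6, both from the plus strand, and end before the first annotated exon. Capitals mark matches on either strand to kappaB (GGGANNNNCC), a T-box site (AGGTGTGA) and the ROR half-site (AGGTCA). The *Ccl20* stretch is chr1:83116516-83116765 and the *Ccl22* stretch is chr8:94745434-94745589.
Ccl20: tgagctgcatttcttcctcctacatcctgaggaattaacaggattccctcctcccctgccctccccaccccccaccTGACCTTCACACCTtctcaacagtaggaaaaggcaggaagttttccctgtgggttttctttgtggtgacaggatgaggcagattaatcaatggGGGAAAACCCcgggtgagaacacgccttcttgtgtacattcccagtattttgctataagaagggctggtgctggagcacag
Ccl22: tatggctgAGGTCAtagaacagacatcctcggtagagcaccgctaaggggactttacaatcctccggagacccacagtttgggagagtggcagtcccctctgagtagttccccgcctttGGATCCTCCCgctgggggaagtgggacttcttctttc
The *Ccl20* stretch held kappaB 81 bases before the start, and a T-box match and a ROR half-site next to each other, without overlap, at 168 and 174 bases, both on the minus strand. The *Ccl22* stretch held kappaB on the minus strand at 131 bases and a ROR half-site at 242 bases before the RefSeq start, which lies inside the first exon. In 32851 promoter windows of 250 bases, 17.6% held a kappaB match, 1.12% a T-box match and 14% a ROR half-site. Neither gene's window held the AP-1, GAS or ISRE-type letters, which are given with the CXCR3 ligands. A match is a description of the letters and says nothing of binding.

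The receptors of both ligands were measured in the same cells. *Ccr6* had 7.45 and 5.37 CPM in Th17, 2.57 and 4.60 CPM in Naive and, in Th1, 0.248 and 0.190 CPM. It was lower in Th1 than in Th17, with a log2 difference of -4.80 (SE 0.59, adjusted p = 0.000943), and Th17 did not pass the test against Naive (0.86, SE 0.48, adjusted p = 0.235). Thus *Ccl20* was at 0 in Naive, where *Ccr6* was detected. *Ccr4* had 50.5 and 65.3 CPM in Th1, 40.0 and 34.8 CPM in Th17, and 13.2 and 17.8 CPM in Naive. It was up-regulated in Th1 compared with Naive by 1.91 (SE 0.30, adjusted p = 0.00258), a call that was lost without Naive replicate 1 (adjusted p = 0.0189), and the log2 difference between Th1 and Th17 was 0.63 (SE 0.29, adjusted p = 0.158). The Th1 libraries were thus above the Th17 libraries for the receptor, a difference that was not called, and below them for the ligand.

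The inflammatory CC chemokines *Ccl3*, *Ccl4* and *Ccl5* did not share a pattern over the cell types. CCL3 and CCL4, the macrophage inflammatory proteins 1α and 1β, are made within hours of T cell activation, whereas CCL5 (RANTES) is kept by effector and memory T cells and NK cells. *Ccl3* (chromosome 11, 83647844 to 83649355, minus strand) had 3.87 and 7.18 CPM in Th17, 0.602 and 0.644 CPM in Naive and, in Th1, 1.13 and 0.822 CPM. Both Th17 libraries were above the other 4. *Ccl3* was up-regulated 8.82-fold in Th17 compared with Naive, a log2 fold change of 3.14 (SE 0.56, adjusted p = 0.00586). In Th1 the log2 difference was 0.68 from Naive (SE 0.55, adjusted p = 0.463) and -2.46 from Th17 (SE 0.54, adjusted p = 0.0154), neither of which was called. The call against Naive was lost without any 1 of the 4 libraries compared. The log2 fold change was then 3.08 and 3.17 without Naive replicate 1 and 2, and 3.53 and 2.63 without Th17 replicate 1 and 2, with adjusted p from 0.0152 to 0.0609.

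*Ccl4* lies next to *Ccl3* (83662584 to 83664683, plus strand) and of the 9 genes differed most, as a ratio, between the Th17 replicates. It had 1.27 and 6.28 CPM in Th17, 1.98 and 1.20 CPM in Th1, and 0.396 and 0.198 CPM in Naive. Every Th17 and Th1 library was above both Naive libraries, and Th17 and Th1 overlapped. The log2 difference was 3.54 in Th17 compared with Naive (SE 0.84, adjusted p = 0.0208) and 2.34 in Th1 compared with Naive (SE 0.81, adjusted p = 0.0802). DESeq2 called the first of these, with an adjusted p of 0.000454. Between Th1 and Th17 it was -1.19 (SE 0.75, adjusted p = 0.286), and without Th17 replicate 2 it turned to 0.35. A predicted RefSeq *Ccl4* model begins inside *Ccl3*, while the GENCODE models of *Ccl3* and *Ccl4* overlap no other gene. Which annotation was used for counting is not given in the sources used here.

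*Ccl5* (chromosome 11, 83525778 to 83530518, minus strand) had its highest values in the cells that were not activated. It had 28.6 and 17.3 CPM in Naive, 5.35 and 13.1 CPM in Th17, and 13.6 and 8.16 CPM in Th1. Both Naive libraries were above the other 4, and Th17 and Th1 overlapped. The log2 difference from Naive was -1.34 in Th17 (SE 0.48, adjusted p = 0.0854) and -1.07 in Th1 (SE 0.48, adjusted p = 0.164), so neither passed. Th1 and Th17 differed by 0.27 (SE 0.48, adjusted p = 0.721), a difference whose sign turned without Th17 replicate 1 (-0.26) or without Th1 replicate 1 (-0.17). The Naive libraries also had the NK cell transcripts described later.

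The *Ccl3* promoter stretch is shown as that of the called member of these CC chemokines. It is chr11:83649379-83649628 of GRCm38.p6 from RefSeq, written along the minus strand, and capitals mark its 1 match, a ROR half-site at 186 bases before the start.
Ccl3: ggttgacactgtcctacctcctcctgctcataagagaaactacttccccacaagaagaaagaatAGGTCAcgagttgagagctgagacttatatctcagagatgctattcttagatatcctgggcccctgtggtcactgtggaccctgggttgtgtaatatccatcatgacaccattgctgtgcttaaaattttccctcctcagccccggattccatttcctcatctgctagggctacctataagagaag
*Ccr1*, a receptor of CCL3 and CCL5 that is common on myeloid cells, had 28.3 and 57.7 CPM in Th17, 3.13 and 1.58 CPM in Th1, and 0.367 and 0 CPM in Naive. Both *Ccr1* and *Ccl3* were thus highest in Th17.

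The CXCR3 ligands *Cxcl9* and *Cxcl10* were highest in Th1 replicate 1. Both are induced by interferons, and CXCR3 marks Th1 cells and other cells drawn to interferon-rich tissue. *Cxcl10* (chromosome 5, 92346638 to 92348889, minus strand) had 14.7 and 3.10 CPM in Th1, 2.65 and 1.36 CPM in Th17, and 1.35 and 0.792 CPM in Naive. Th1 was above the other 4 libraries, and its replicates were farther apart than those of the other cell types. The log2 difference from Naive was 3.03 in Th1 (SE 0.74, adjusted p = 0.0199) and 0.90 in Th17 (SE 0.71, adjusted p = 0.399), and from Th17 to Th1 it was 2.14 (SE 0.70, adjusted p = 0.0642). Th1 compared with Naive was called without Th1 replicate 2 (3.74, adjusted p = 0.0031) and was 1.55 without Th1 replicate 1. It was also called by DESeq2 (adjusted p = 0.000369). *Art3* overlaps *Cxcl10* on the opposite strand, and the methods and the supplementary code differ on the strand setting used for counting. The methods state default settings, and the code counts on the reverse strand.

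*Cxcl9* (92321347 to 92328079, minus strand) was counted less often. It had 1.72 and 0.506 CPM in Th1, 0.811 and 0.226 CPM in Th17, and 0.0294 and 0 CPM in Naive, where it had 2 counts in all. Every Th1 and Th17 library was above Naive, and Th1 and Th17 overlapped. The ratio of pooled counts to Naive was 65.3 in Th1 (95% counting interval 17.7 to 546) and 30.3 in Th17 (8.02 to 256). The adjusted p-values were 0.0108 and 0.0321. Against Naive, *Cxcl9* in Th1 was called without Th1 replicate 2 (adjusted p = 0.00851), without Th17 replicate 2 (adjusted p = 0.00967) and by DESeq2 (adjusted p = 0.00195). Th1 and Th17 differed by a log2 of 1.06 (SE 0.82, adjusted p = 0.386), and by -0.12 without Th1 replicate 1.

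The promoters of both CXCR3 ligands are shown because the genes are neighbours with a shared inducer. They are chr5:92328080-92328329 for *Cxcl9* and chr5:92348890-92349139 for *Cxcl10*, from RefSeq on GRCm38.p6 and written along the minus strand. Capitals mark kappaB and the ROR half-site as above, the ISRE-type letters GAAANNGAAA and AP-1 (TGANTCA), and the GAS letters TTCNNNGAA were also searched.
Cxcl9: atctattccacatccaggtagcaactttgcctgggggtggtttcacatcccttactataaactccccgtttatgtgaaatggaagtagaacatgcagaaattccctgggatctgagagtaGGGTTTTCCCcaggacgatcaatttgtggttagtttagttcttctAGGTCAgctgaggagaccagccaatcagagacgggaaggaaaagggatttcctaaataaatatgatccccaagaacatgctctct
Cxcl10: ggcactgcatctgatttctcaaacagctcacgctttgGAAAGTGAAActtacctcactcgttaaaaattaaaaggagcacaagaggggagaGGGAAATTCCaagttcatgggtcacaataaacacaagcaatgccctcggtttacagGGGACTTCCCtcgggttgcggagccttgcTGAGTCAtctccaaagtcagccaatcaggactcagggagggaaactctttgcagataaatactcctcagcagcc
The *Cxcl9* stretch held a kappaB match at 130 bases before the start on the minus strand and a ROR half-site at 85 bases. The *Cxcl10* stretch held kappaB matches at 159 and 103 bases, an ISRE-type match at 213 bases and AP-1 at 74 bases. ISRE-type letters were in 2.98%, AP-1 letters in 6.75% and GAS letters in 7.02% of all promoter windows. The kappaB letters were in the windows of 5 of the 7 members that had one, those of *Ccl1*, *Ccl20*, *Ccl22*, *Cxcl9* and *Cxcl10*, and they overlap between strands in *Ccl1*. The table used held no promoter of *Ccl4* or *Ccl5*.

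Genes of the interferon-γ response were read beside the CXCR3 ligands. The list has 16 genes, of which 9 were up-regulated in Th1 relative to Th17 (median log2 difference 1.84 over the list) and 6 relative to Naive (median 1.10, with *Ido1* at its bound). Over all genes 2.70% were called higher in Th1 relative to Th17. Without a Th17 library the count against Th17 was 3. It was 5 and 7 without Th1 replicate 1 and 2. *Gbp2*, a guanylate-binding protein, had 2423 and 3316 CPM in Th1, 148 and 105 CPM in Th17, and 43.5 and 48.1 CPM in Naive. *Iigp1*, an immunity-related GTPase, had 273 and 213 CPM in Th1 and 14.8 and 10.8 CPM in Th17. *Ido1* and *Ciita* were the 2 genes of the list called in Th17 compared with Naive. Without Naive replicate 1, Naive replicate 2 or Th17 replicate 1 neither was called, and without Th17 replicate 2 the count was 1. *Ido1* had 2.30 and 1.02 CPM in Th17 and at most 0.155 CPM elsewhere, and *Ciita* had 6.84 and 4.58 CPM in Th17 and at most 1.02 CPM elsewhere. The summed CPM of the list was 8225 and 8238 in Th1, where the replicates were level, while *Cxcl10* was not. *Ifng* itself had 177 and 157 CPM in Th1 and 64.6 and 48.7 CPM in Th17.

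*Cxcr3* was higher in Th1 than in Th17 or Naive, as the values of *Cxcl10* were. The Th17 libraries were below Naive for *Cxcr3*. They were above Naive for *Cxcl9* and *Cxcl10*, but neither of these differences was called in edgeR. For *Cxcl10* the lower Th17 library, at 1.36 CPM, was level with the higher Naive library, at 1.35 CPM. *Cxcr3* had 122 and 167 CPM in Th1, 13.6 and 9.45 CPM in Th17, and 48.3 and 47.5 CPM in Naive. It was up-regulated in Th1 by 1.59 (SE 0.29, adjusted p = 0.00509) and its log2 fold change in Th17, where it was down-regulated, was -2.05 (SE 0.30, adjusted p = 0.0019), both relative to Naive. Down-regulated genes made up 1.43% of all genes in Th17 and 2.81% in Th1, relative to Naive. *Cxcr3* was not called in Th17 against Naive without Th17 replicate 2 (adjusted p = 0.0192). In Th1 against Naive it was not called without either Naive library or without Th1 replicate 2 (adjusted p from 0.0214 to 0.0297).

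*Xcl1* was lowest in Th1. XCL1, or lymphotactin, is released by NK cells and activated T cells and attracts dendritic cells that carry XCR1. The gene (chromosome 1, 164931644 to 164935527, minus strand) had 3.77 and 2.58 CPM in Naive, 2.04 and 1.75 CPM in Th17, and 0.634 and 0.126 CPM in Th1. The 3 cell types did not overlap. The log2 difference was -2.88 in Th1 compared with Naive (SE 0.68, adjusted p = 0.0176), -2.13 in Th1 compared with Th17 (SE 0.67, adjusted p = 0.0553) and -0.75 in Th17 compared with Naive (SE 0.62, adjusted p = 0.423). None of these was called in edgeR, while DESeq2 called the first with an adjusted p of 0.00071. *Xcr1* had 5.55 and 4.99 CPM in Th1, 3.03 and 3.0 CPM in Th17, and 0.792 and 0.446 CPM in Naive, the opposite order to its ligand. It was up-regulated in Th1 compared with Naive by 3.04 (SE 0.51, adjusted p = 0.0034), which was not called without Naive replicate 2 (adjusted p = 0.0129) or Th1 replicate 1 (adjusted p = 0.0136). *Gm20743* overlaps *Xcl1* on the opposite strand, so the doubt about strand given for *Cxcl10* holds here too.

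*Ccl1*, a ligand of CCR8 made by activated Th2 cells and mast cells, was close to the limit of detection throughout. Its counts were 6 and 1 in Th17, 3 and 2 in Th1, and 8 and 5 in Naive, which are 0.0464 to 0.248 CPM over the 6 libraries. Th1 overlapped with both other cell types, and the ratio of pooled counts was 0.573 for Th17 over Naive, with a 95% counting interval of 0.194 to 1.54. At this depth no difference was detectable. *Ccr8* had 1.64 to 3.79 CPM and was not called in any comparison.

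**Figure D2:**
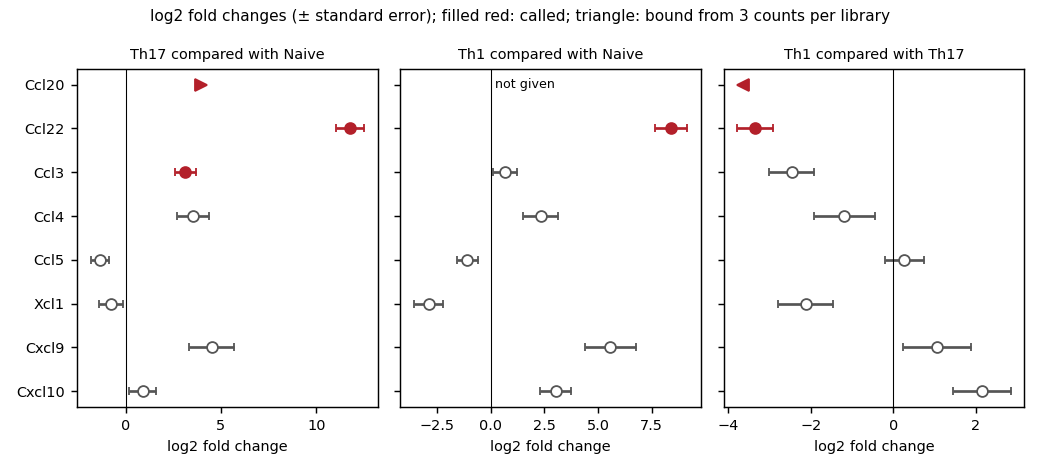
Fitted log2 fold change of the 8 genes tested (horizontal axis, a separate scale per panel; bars are 1 standard error) in the 3 comparisons. Filled red circles are called genes, and triangles place *Ccl20* at its lower bound from 3 counts per library (15.5-fold and 12.6-fold). The *Ccl22* and *Cxcl9* values against Naive rest on 1 and 2 counts in Naive, and *Ccl22* lies farthest from 0 against Naive.

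The libraries of Th17 and Naive did not overlap for any of the 8 genes tested, against 65.5% of all genes. Among the 8, 6 were higher and 2 lower in Th17, against 32.4% and 33.1% of all genes. For Th1 and Naive 7 of 8 did not overlap, against 56.0% of all genes, and *Ccl20* was at 0 in both. For Th1 and Th17 it was 5 of 8, against 66.6% of all genes. Non-overlap of 2 libraries with 2 was thus common. For genes that were not called, such as *Xcl1* and *Ccl5*, it describes the order of the libraries only.

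**Figure D3:**
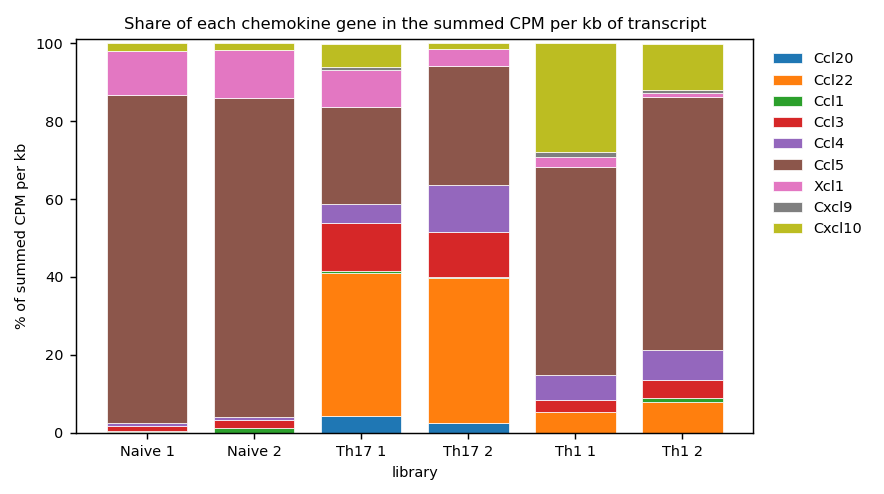
Share of each chemokine gene (stacked, vertical axis in %) in the summed CPM per kb of the 9 genes, for each library. *Ccl5* takes 84.2% and 81.8% in Naive, and *Ccl22* takes 36.6% and 37.3% in Th17.

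Per kb of the principal transcript, which allows levels to be compared between genes, the leading chemokine differed between the cell types. In Naive, *Ccl5* held 84.2% and 81.8% of the summed CPM per kb of the 9 genes, at 53.8 and 32.6 CPM per kb, and *Xcl1* came next with 11.3% and 12.4%. In Th17, *Ccl22* led with 36.6% and 37.3%, ahead of *Ccl5* with 24.9% and 30.7%. *Ccl3* took 12.5% and 11.7% there, and *Ccl20* 4.35% and 2.49%. In Th1, *Ccl5* led again with 53.5% and 65%, and *Cxcl10* was second with 28% and 12%. The Th17 replicates had 50.2 and 97.6 CPM in the 9 genes together, so the share of *Ccl22* was close between them while its CPM was not. The share of *Ccl4* was 4.77% in Th17 replicate 1 and 11.9% in replicate 2.

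Other chemokine genes lie in the same clusters, with gaps under 300 kb. *Ccl5*, *Ccl9*, *Ccl6*, *Ccl3* and *Ccl4* follow each other on chromosome 11, *Ccl1* ends the *Ccl2* to *Ccl8* cluster, *Cxcl11* lies beside *Cxcl10*, and *Ccl17* and *Cx3cl1* lie beside *Ccl22*. *Ccl6*, a mouse CCR1 ligand of myeloid cells, had 139 and 419 CPM in Th17, 15.1 and 13.2 CPM in Th1, and 0.910 and 0.396 CPM in Naive, where both helper cell types were called against Naive. Its neighbour *Ccl9* had 20.9 and 174 CPM in Th17, 7.25 and 3.02 CPM in Naive and, in Th1, 4.35 and 2.85 CPM. *Ccl5*, in the same cluster, was thus highest in Naive while *Ccl6*, *Ccl9* and *Ccl3* were highest in Th17.

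*Ccl17*, the other CCR4 ligand, had 2.48 and 22.8 CPM in Th17, 0.543 and 0.0495 CPM in Naive and, in Th1, 0.217 and 0 CPM. It was above all other libraries in Th17, as *Ccl22* was, and was not called (adjusted p = 0.0189 against Naive). It differed from *Ccl22* in Th1, where *Ccl22* had at least 4.11 CPM. *Cxcl11*, the third CXCR3 ligand, had 0.340 and 0.0632 CPM in Th1, 0.0306 and 0 CPM in Th17 and 0 in Naive, and did not pass the filter. *Ccl2*, a monocyte attractant, had 1.30 and 11.6 CPM in Th17 and at most 1 count in any other library.

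Of the 31 chemokine ligands outside the 9, 10 had no count in any library and 16 were tested. In Th17 compared with Naive 8 were up-regulated, with a median log2 fold change of 5.11 when genes with no count in a group were placed at their bound. Relative to Naive 2 were up-regulated in Th1, and relative to Th17 7 were down-regulated there. With no filter on low counts 12 were called in the first and in the last of these. *Cxcl3*, a neutrophil attractant, had 7.31 and 38.6 CPM in Th17, at most 0.0632 CPM in Th1 and 0 in Naive. *Ppbp*, a platelet chemokine, had 60.8 and 88.5 CPM in Th17, 18.0 and 6.70 CPM in Th1, and 0.0587 and 0 CPM in Naive. The 31 genes summed to 369 and 1060 CPM in Th17 and to 6.73 to 64.8 CPM in the other 4 libraries. Th17 replicate 2 was the higher library for every one of the 8. Without it, 4 were called against Naive and 2 against Th1, and without Naive replicate 1 5 were called against Naive. Without Th1 replicate 1 or 2 the count against Th1 was 4 and 2.

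**Figure D4:**
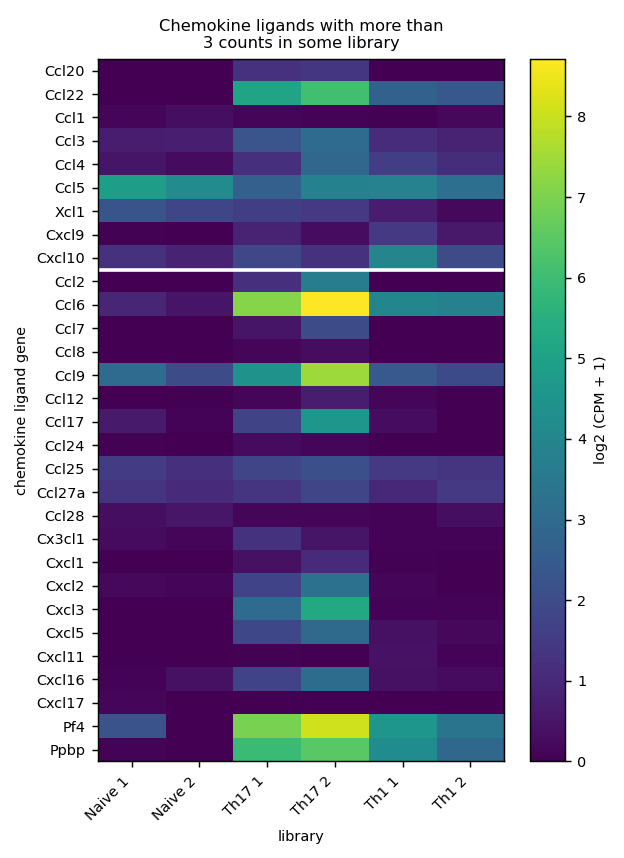
log2 (CPM + 1) of the 30 chemokine ligand genes with more than 3 counts in some library (rows, the 9 genes above the white line) in the 6 libraries (columns). *Ccl6* and *Pf4* are the brightest rows in both Th17 libraries, and *Ccl5* is the brightest row in Naive.

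Further lists were read for the pathways that induce these genes. Of the 9 activation-induced cytokines tested, 4 were up-regulated in Th17 compared with Naive (*Csf2*, *Ifng*, *Il10* and *Il2*) and *Fasl* was down-regulated. In Th1, 4 were up-regulated, with *Fasl* in place of *Il2*. *Csf2*, which encodes GM-CSF, had 30.4 and 24.5 CPM in Th17 and 20.5 and 32.5 CPM in Th1, and the libraries of these cells overlapped. *Il2* had 5.52 and 4.92 CPM in Th17 and 0.0928 and 0.190 CPM in Th1. Of 12 NF-κB target genes, 1 was up-regulated in Th17 compared with Naive (*Bcl3*), and 3 up-regulated and 1 down-regulated in Th1 compared with Naive. *Cd83* had 0.248 and 0.506 CPM in Th1, 5.31 and 6.28 CPM in Th17, and 8.76 and 7.97 CPM in Naive. *Icam1* had 178 and 247 CPM in Th1, 98.4 and 78.2 CPM in Th17, and 33.8 and 39.1 CPM in Naive, another order than that of *Ccl22*. *Traf1* was up-regulated in Th1 compared with Naive by a log2 fold change of 1.32. Without either Naive library or Th17 replicate 1 the 4 cytokines up-regulated in Th17 became 2, and without either Th17 library *Fasl* was not called. *Bcl3* in Th17 was not called without Naive replicate 1 or Th17 replicate 1. The 3 NF-κB targets in Th1 became 1 without Naive replicate 1 or Th1 replicate 2, and 2 without any 1 of the other libraries.

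Markers of other cell types moved with several of these chemokines. The 7 neutrophil markers summed to 2875 and 2773 CPM in Th17, 310 and 189 CPM in Naive and, in Th1, 27.4 and 39.3 CPM. Of these 7, 5 were called higher and 1 lower in Th17 compared with Naive. *S100a8* alone had 1149 and 1142 CPM in Th17. The lower one was *Mpo*, a neutrophil granule enzyme, with 68.1 and 58.7 CPM in Th17 and 251 and 159 CPM in Naive (adjusted p = 0.00473), a call lost without Naive replicate 1 or either Th17 library. *Elane*, neutrophil elastase, had 52.5 and 46.9 CPM in Th17 and 57.3 and 29.6 CPM in Naive. *Mpo* and *Elane* made up almost all of the neutrophil sum in Naive, where every other marker of that list had at most 0.97 CPM. The 11 macrophage and dendritic cell markers summed to 25.5 and 72.5 CPM in Th17, 21.3 and 13.5 CPM in Naive and, in Th1, 16.2 and 9.61 CPM. *Itgax* had 1.44 CPM in Th17 replicate 1 and 23.8 CPM in replicate 2, and *Siglech* was at 0 in Th17 and Th1. The 7 mast cell and basophil markers summed to 219 and 434 CPM in Th17, 144 and 41.6 CPM in Naive and, in Th1, 79.5 and 65.3 CPM. The macrophage, dendritic cell and mast cell sums were thus higher in Th17 replicate 2, as were *Ccl22*, *Ccl3*, *Ccl4* and *Ccl5*. *Cxcl9*, *Cxcl10*, *Xcl1* and, with few counts, *Ccl1* were lower in Th17 replicate 2 than in replicate 1. The neutrophil sum and *Ccl20* were level between the Th17 replicates. Their part in the Th17 values of the chemokines was not tested.

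The 5 NK cell markers summed to 36.7 and 35.1 CPM in Naive, 3.37 and 2.88 CPM in Th17, and 12.8 and 12.1 CPM in Th1. Of these, *Klrb1c* had 17.4 and 11.2 CPM in Naive and at most 1.19 CPM elsewhere, *Ncr1* had at most 0.748 CPM in any library and *Klra8* was at 0 in all 6. *Eomes*, a transcription factor that T cells also use, had 12.3 and 11.95 CPM in Th1 and so made up most of the sum there. It had 1.12 and 0.679 CPM in Th17. *Klrb1c*, at 0.948 and 1.19 CPM in Th17 and 0.170 and 0.126 CPM in Th1, lay higher in both Th17 libraries than in either Th1 library, as *Xcl1* did. It was called between them (adjusted p = 0.00959), but not without any 1 library other than Naive replicate 2. The NK cell sum was highest in Naive, as *Ccl5* and *Xcl1* were. The 2 CD8 T cell markers summed to 5.66 to 11.3 CPM over the 6 libraries, with *Cd8a* at most 1.38 CPM. Both Naive libraries were above both Th17 libraries for this sum, and Th1 overlapped with each. The 5 B cell markers summed to 10.6 and 6.54 CPM in Naive, 15.8 and 11.8 CPM in Th17, and 2.41 and 2.97 CPM in Th1. For *Cxcl9* and *Cxcl10* in Th1, the macrophage and dendritic cell sum was not above that of the other cell types. Their part in the values of *Ccl5* and *Xcl1* was not tested.

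**Figure D5:**
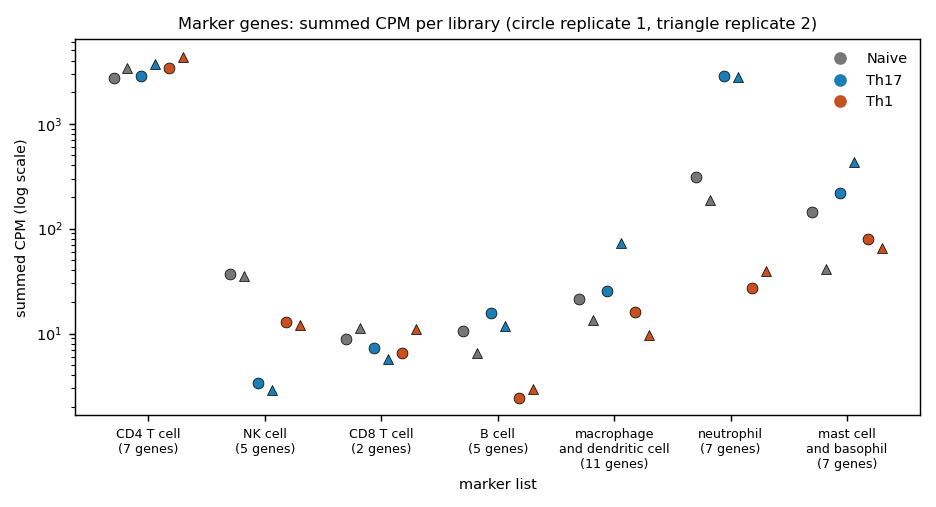
Summed CPM (vertical axis, log scale) of each marker list in the 6 libraries, coloured by cell type, with circles for replicate 1 and triangles for replicate 2. The neutrophil sum is 2875 and 2773 CPM in Th17, the NK cell sum is highest in Naive, and the macrophage and dendritic cell sum is highest in Th17 replicate 2 at 72.5 CPM.

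The genes whose pattern over the 6 libraries was most like each chemokine were found by Pearson's r of log2 CPM, among the 11723 or 11724 genes with a mean of at least 1 CPM other than the chemokine itself. These r values are descriptions over 6 libraries that share depth and cell type. *Ccl22* was most like *Mmp13* (r = 0.999), *Il21* and *Milr1*. With a prior count of 0.5 in place of 2, *Cdh17* and *Pkib* took the places of the last pair. *Mmp13*, a collagenase, had 17.0 and 27.4 CPM in Th17, 2.61 and 2.40 CPM in Th1 and 0 in Naive, and *Il21*, a helper T cell cytokine, had 35.5 and 48.6 CPM, 13.4 and 13.6 CPM, and 1.75 and 1.73 CPM in the same order. *Ccl20* was most like *Il1f9*, *Fpr1* and *Dancr*. *Fpr1*, a formyl peptide receptor of neutrophils and other myeloid cells, had 4.79 and 5.20 CPM in Th17 and 0 elsewhere. *Ccl3* was most like *Chm*, *Fam188a* and *Cxcl3*, and 203 genes had an r above 0.95 with it. *Zfp938* took the place of *Cxcl3* with the smaller prior count.

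*Cxcl10* was most like *Rmi2*, *Cdca2* and *Kif14*, of which the last is a mitotic kinesin. *Kif14* had 93.2 and 26.8 CPM in Th1 and 10.7 to 22.1 CPM in the other 4 libraries, so that it too was higher in Th1 replicate 1. *Cxcl9* was most like *Xbp1*, *Eno1b* and *Rab19*, none of which was among the first 3 with the smaller prior count. The 3 genes named for each of the other chemokines were the first 3 with either prior count. *Xcl1* was most like *Erg*, *Zfp870* and *F13a1*, and *Ccl4* like *Zfp825*, *Ssr3* and *Ift74*. *Ccl5* was most like *Tor3a* (r = 0.984), *Rad17* and *Gid8*, and only 4 genes had an r above 0.95 with it. Among the chemokines themselves, r was 0.963 for *Ccl3* and *Ccl20*, 0.91 for *Ccl4* and *Ccl22*, 0.88 for *Cxcl9* and *Cxcl10*, and 0.804 for *Ccl3* and *Ccl4*. *Ccl5* had a negative r with 6 of the other 7 chemokines tested, and a positive one, 0.466, with *Xcl1*.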

How the data were processed

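RNA-Seq of 6 mouse libraries was analysed, and other assays of the study were not analysed here. Per the labels, poly-A RNA was amplified by Smart-seq2, and the authors aligned reads to mm10 with HISAT2 2.2.1 and counted them per gene with HTSeq 0.13.5. The deposited values are raw counts. The methods state default settings and removed duplicates, whereas the supplementary code counts on the reverse strand and holds no duplicate step. The annotation is not given in the sources used here.

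The analysis used R 4.3.3, limma 3.58.1 and edgeR 4.0.16 (filterByExpr, TMM and the quasi-likelihood F-test, fitted to the 6 libraries together by cell type). p-values were adjusted by Benjamini-Hochberg over 13607 genes. SE is the absolute log2 fold change divided by the root of F. An exact two-sided permutation test of 2 libraries against 2 cannot go below 0.333. Reads are not independent molecules, so intervals (exact binomial, 95%) cover counting error only. Positions come from GENCODE vM21, and promoters from RefSeq, with 7 of 9 members matched.

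The members, lists and tests were chosen with earlier results of these data known. Named were all 9 members, at most 4 called genes per list with the largest change, the 3 genes most alike, chemokines of the same clusters, and defining markers at or near 0. *Itgax*, *S100a8*, *Mpo*, *Elane*, *Eomes*, *Fasl*, *Pf4*, *Tbx21* and *Il17a* were singled out after their values were seen. Alternatives were RLE factors, library size alone, no filter, at least 10 counts in every library, DESeq2 1.42.0, the replicate block, only the 4 libraries compared, thinning, other thresholds, and leaving out each library. The model was tested on simulated data. Some genes that these rules name are not reported here.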

Additional observations from a re-analysis of the deposited data

How the results depend on the processing

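Over 23 comparisons of single chemokine genes, 214 of 252 values under other settings kept direction and call, 34 became called, 4 lost the call and 0 changed sign. Leaving out a library, which leaves 1 library assumed to vary like the other groups, kept 120 of 138. The chemokines called in Th17 compared with Naive numbered 6 with no filter, 1 with at least 10 counts in every library, 5 at an adjusted p under 0.05, and 1 to 3 with a library left out. In Th1 compared with Naive they numbered 2 with RLE factors, 5 with no filter, 4 with DESeq2 and at an adjusted p under 0.05, and 1 to 3 with a library left out. With at least 10 counts in every library they numbered 0, where 3 were tested, without *Ccl22*, and 2 had an unadjusted p under 0.05 in edgeR. In Th1 compared with Th17 they numbered 4 with no filter, 1 with at least 10 counts and 1 to 2 with a library left out. Signs turned in Th1 compared with Th17 for *Ccl4* (-1.96 to 0.35, positive without Th17 replicate 2), *Ccl5* (-0.26 to 1.04, with -0.17 and -0.26 without replicate 1 of Th1 and Th17) and *Cxcl9* (-0.12 to 2.33, negative without Th1 replicate 1). Apart from the filters and smaller designs, the cause was not tested.

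Over all genes, the 739, 1014 and 752 genes called became 2154, 2259 and 2232 with no filter, 1738, 1928 and 1824 with DESeq2, and 2063, 2164 and 2112 at an adjusted p under 0.05. With at least 10 counts they were 343, 674 and 411, and against a fold of 2 they were 403, 511 and 349. Library size alone moved the median log2 fold change of Th1 to -0.26 against Naive and -0.24 against Th17. With it the higher calls in Th1 compared with Naive fell from 631 of 1014 to 399 of 762, and in Th1 compared with Th17 from 367 of 752 to 202 of 554.

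With the replicate number as a block, 4 chemokines were called in Th1 compared with Naive, also with DESeq2, where 1402 of 13607 genes and, with DESeq2, 1796 of 14112 were called. The numbers do not establish a pairing, since same-numbered deviations correlated at -0.231 for Naive and Th17, 0.168 for Naive and Th1 and 0.077 for Th17 and Th1. For Th17 compared with Naive, a crossed pairing added after seeing the data called 4 chemokines and 1499 genes, against 4 and 1307 as numbered. Depth limits *Ccl1*, *Ccl20* and *Cxcl9*, with under 120 counts per cell type.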
